A study of Homo sapiens with 2 samples.

Results

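The sites described here are the TAL1 peaks that shared no base with a UTX peak when a TAL1 and a UTX peak list were compared in a study of T cell acute lymphoblastic leukaemia (T-ALL). They number 515 of the 2678 peaks of the TAL1 list (19.2%), against 2163 TAL1 peaks that touched UTX, and both lists together hold 20074 peaks. They were chosen by the positions of the called peaks alone. Of the 515 sites, 18 lie in 1 window, 133 to 134 Mb of chromosome 2, and without that window 497 of 2659 TAL1 peaks (18.7%) had no UTX. Lack of UTX is the rule that selected these sites and is not a finding.

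The UTX list comes from 1 library of chromatin immunoprecipitation followed by sequencing (ChIP-seq) in Jurkat cells, an established human T-ALL line, with a mixture of 2 UTX antibodies. The cells were grown without treatment, and chromatin was sheared to fragments of 100 to 300 bases. A mock library with an isotype IgG was made from the same line and was not analysed here. The TAL1 list derives from an earlier study, and its cells, number of libraries and calling threshold are not given in the labels.

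TAL1 belongs to the basic helix-loop-helix factors. It binds E-box motifs as a dimer with E proteins and works in a complex with LMO, LDB1 and GATA proteins. It is normally active in blood stem cells and red cell precursors and is switched on aberrantly in a subset of T-ALL. UTX, the product of KDM6A, demethylates histone H3 at lysine 27, where methylation marks silenced genes, and has been described as a cofactor of TAL1 in T-ALL. A TAL1 site without a called UTX site is here a place where TAL1 was called in its list and UTX was not called in the other. Since the cells of the TAL1 list are not given, the lists may not come from the same cells.

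The lists hold positions only, so a peak has no height, enrichment or read count, and a UTX signal just under the caller's threshold cannot be told apart from none. Each list stands for 1 call set without replicates. Peaks are not replicates, so the sets below are set side by side without p-values. The ranges given with shares are 95% exact (Clopper-Pearson) binomial intervals, and those given with medians are intervals of the same level from the ranked values. Both cover the counting of peaks only. For a count of 0, the upper limit given is instead 3 divided by the number of sites. Positions are counted from 1 and are taken as hg19. Genes and sequences at these positions are not given, since a genome and annotation of that build were not used here.

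The TAL1 peaks without UTX were narrow. Their widths ran from 87 bases, the smallest width in the TAL1 list, to 324 bases, with quartiles at 99 and 141 bases and a median of 118 (interval 114 to 121). TAL1 peaks with UTX had quartiles at 124 and 199 bases and a median of 157 (interval 153 to 159). The wide tail was thin among the sites without UTX: 24 of 515 (4.66%) measured 200 bases or more, against 540 of the 2163 with UTX (24.97%). At the other end, 137 of 515 (26.6%) measured at most 100 bases, against 185 with UTX (8.55%). Exactly 87 bases, the floor of the list, was the width of 47 sites without UTX (9.13%, interval 6.78 to 11.95%) and of 51 sites with UTX (2.36%, interval 1.76 to 3.09%). Leaving out the chromosome 2 window moved the median of the sites without UTX from 118 to 117 bases. On all 24 chromosomes the median width of the sites without UTX was below that of the sites with UTX.

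The share without UTX fell at every step when the TAL1 list was divided by width into 10 classes of similar size. It was 44.1% in the narrowest class, 87 to 97 bases (120 of 272 peaks, interval 38.1 to 50.2%). It was 34.1% at 98 to 110 bases, 29.3% at 111 to 123 bases and 25.1% at 124 to 134 bases. The class of 135 to 147 bases stood at 20.7%, near the 19.2% of the whole list. Beyond it the share was 13.3% at 148 to 161 bases, 9.89% at 162 to 178 bases and 5.95% at 179 to 203 bases. The 2 widest classes, 204 to 240 and 241 to 647 bases, had 5.28% (14 of 265) and 3.79% (10 of 264, interval 1.83 to 6.86%). So 412 of the 515 sites lay in the narrower 5 classes. A wider interval touches a UTX peak more easily, so width is not independent of the rule; how far that alone accounts for the gradient was not tested.

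**Figure D1:**
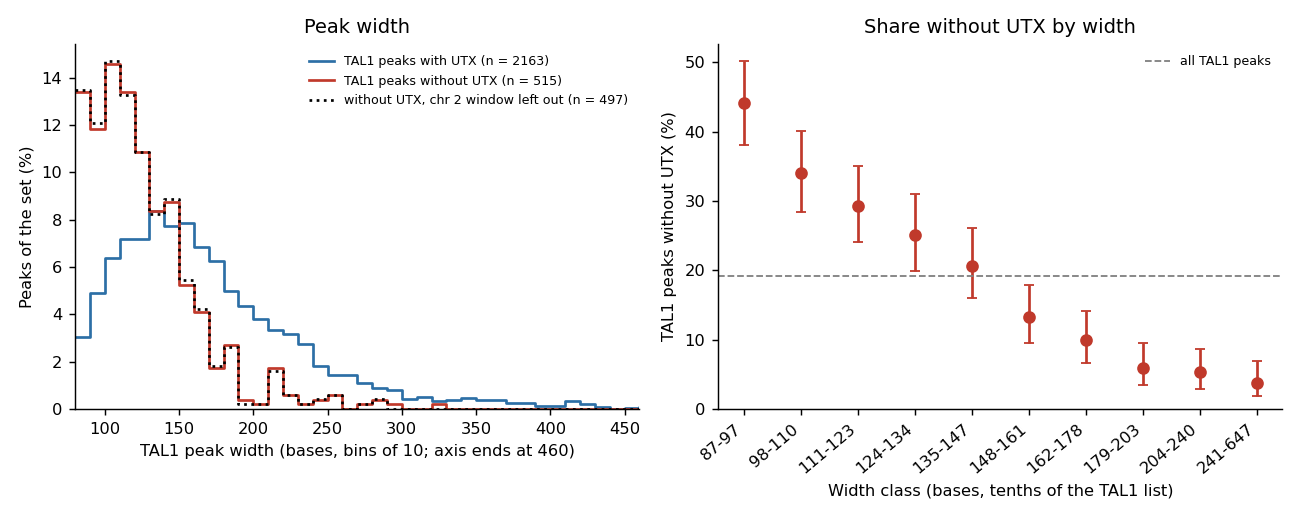
Left, the width of TAL1 peaks (bases, bins of 10) as a percentage of each set, for 2163 peaks with UTX, 515 without and 497 without after the chromosome 2 window is left out. Right, the percentage of TAL1 peaks without UTX in 10 width classes with 95% exact binomial intervals, which goes from 44.1% in the narrowest class to 3.79% in the widest, with the 19.2% of the whole list as a dashed line.

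Among the sites without UTX, width did not follow the distance to UTX. The 30 sites within 1 kb of a UTX peak had a median width of 112 bases, the 136 sites at 1 to 10 kb 117 bases, the 241 sites at 10 to 100 kb 119 bases and the 103 sites at 100 kb to 1 Mb also 119 bases. The 5 sites beyond 1 Mb had a median of 100 bases and a widest peak of 121. The interquartile ranges of the first 4 bands overlapped, from 101 to 136 bases in the nearest band and from 97 to 144 bases in the farthest of the 4. The widest sites, named by the rule given with the methods, were therefore found at many distances. Outside the window they were chr3:12226759-12227045 (287 bases), 64.5 kb from the nearest UTX peak, and chr14:88237570-88237849 (280 bases), 231 kb from it. They continue with chr13:111178053-111178330 (278 bases, 104 kb), chr16:16214691-16214949 (259 bases, 0.618 kb) and chr20:30154545-30154801 (257 bases, 5.65 kb). For 2 of these 5, those on chromosomes 3 and 13, the nearest UTX peak held another TAL1 peak.

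At the border of the rule, few sites were close calls. The nearest site without UTX, chr9:136339885-136339985, lay 116 bases from the edge of a UTX peak of 463 bases, and 0 of the 515 sites lay within 100 bases, which allows a share of up to 0.583%. The next were chr4:164116436-164116598 at 157 bases, chr2:133035015-133035101 at 159 bases, chr14:20895583-20895683 at 179 bases and chr1:16970575-16970676 at 188 bases. In 4 of these 5 cases, the exception being chromosome 1, the nearby UTX peak held another TAL1 peak, so these sites stood beside a place where both proteins were called. On the inner side of the border, the TAL1 peak at chr10:81947628-81947755 shared 4 bases with its UTX peak, chr6:42739156-42739253 shared 13 and chr5:137989989-137990110 shared 17. The next 2 were chr13:30951092-30951227 with 33 bases and chr15:40037150-40037241 with 54. Under 50 bases were shared by 4 of the 2163 sites with UTX, and 1951 (90.2%) lay wholly inside a UTX peak.

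The sites without UTX had fewer UTX peaks around them than the sites with UTX. The sets were split by the positions of the same UTX peaks, so this is tied to the rule and is a description only. To leave out the touched peak, the distance was taken to the nearest UTX peak that the TAL1 peak did not touch. This distance had a median of 25.1 kb for sites without UTX (quartiles 5.71 and 79.2 kb, interval of the median 21.0 to 32.2 kb) and of 13.8 kb for sites with UTX (quartiles 3.75 and 46.2 kb, interval 12.4 to 15.3 kb). Such a UTX peak stood within 10 kb of 166 of the 515 sites (32.2%, interval 28.2 to 36.5%) and of 928 of the 2163 (42.9%, interval 40.8 to 45.0%). Within 100 kb the sites without UTX had a mean of 2.74 UTX peaks and those with UTX 3.63, besides the one they touched. There was no UTX peak within 100 kb at 108 of the 515 sites (21.0%, interval 17.5 to 24.7%), and no further one at 292 of the 2163 (13.5%, interval 12.1 to 15.0%). Without the chromosome 2 window the median distance for sites without UTX was 28.7 kb and 153 of 497 (30.8%) had a UTX peak within 10 kb.

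The nearest TAL1 peak with UTX was a median of 256 kb away from a site without UTX (quartiles 59.3 and 784 kb, interval of the median 204 to 313 kb). From one TAL1 peak with UTX to the next with UTX the median was 182 kb (quartiles 35.3 and 644 kb, interval 161 to 193 kb). Short distances are tied to the rule, since TAL1 peaks that touch the same UTX peak all count as with UTX. The 2163 sites with UTX touched 2100 UTX peaks, and how far this accounts for the next counts was not tested. Another TAL1 peak with UTX stood within 1 kb of 146 of the 2163 sites with UTX (6.75%, interval 5.73 to 7.89%). The same held for 9 of the 515 sites without UTX (1.75%, interval 0.802 to 3.29%). Within 10 kb the counts were 306 (14.1%) and 42 (8.16%, interval 5.94 to 10.9%). The window took part in this: without it 29 of 497 sites (5.84%, interval 3.94 to 8.27%) had a TAL1 peak with UTX within 10 kb, and the median distance was 276 kb. The chromosome 2 sites count because a single TAL1 peak with UTX stands in their cluster. At the far end, 107 of the 515 sites (20.8%) were more than 1 Mb from any TAL1 peak with UTX.

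**Figure D2:**
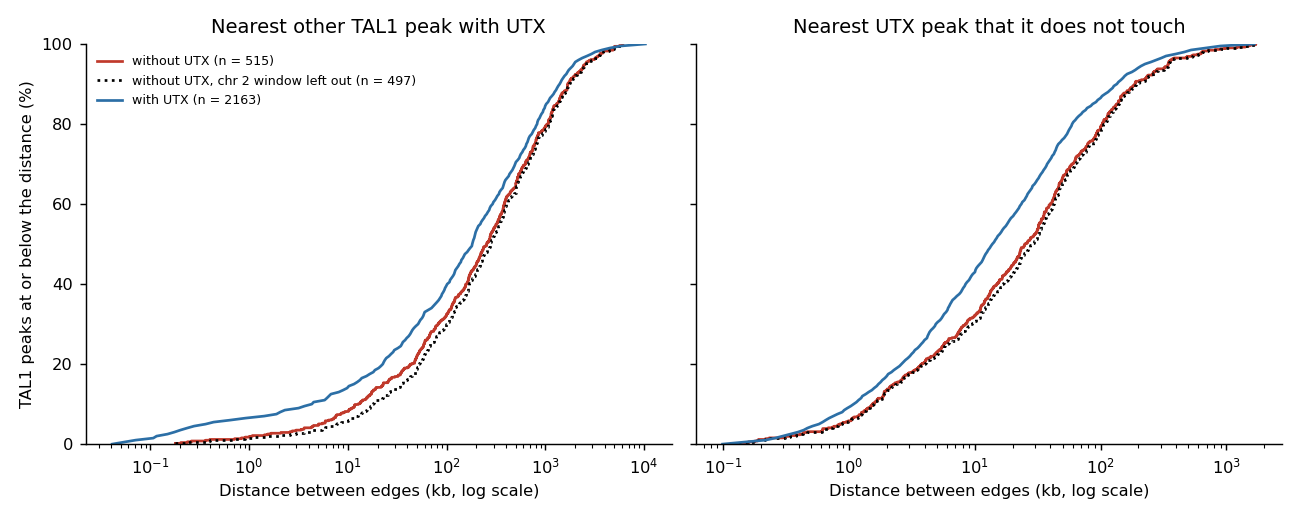
Cumulative percentage of TAL1 peaks (y axis) by the distance between edges in kb (x axis, log scale) to the nearest other TAL1 peak with UTX (left) and to the nearest UTX peak that is not touched (right), for the 515 sites without UTX, the 497 left without the chromosome 2 window and the 2163 sites with UTX. The curves for sites without UTX lie to the right of the curve for sites with UTX over most of the range, with medians of 256 against 182 kb on the left and 25.1 against 13.8 kb on the right.

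Both distances were also compared within 2 broad width classes, since the sets differ in width. The classes do not match the sets for width, as the share without UTX still falls with width inside each. Among TAL1 peaks of 87 to 147 bases, the median distance to a UTX peak not touched was 24.0 kb for 412 sites without UTX and 16.5 kb for 927 with UTX. Among wider peaks it was 29.5 kb for 103 sites without UTX and 12.7 kb for 1236 with UTX. The distance to the nearest other TAL1 peak with UTX was 275 against 192 kb in the narrower class. In the wider class it was 176 against 174 kb, and 206 kb for the 98 wider sites left without the window. The difference in the distance to UTX thus appeared in both width classes. That in the distance to TAL1 peaks with UTX was small among the wider peaks. Within each class both distances remain tied to the rule.

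Most UTX peaks next to these sites were ordinary members of the UTX list. The 515 sites had 469 different nearest UTX peaks, whose widths had a median of 306 bases and quartiles of 227 and 432. This median was close to the 320 bases of all UTX peaks. It was below the 405 bases of the 2100 UTX peaks with TAL1 (quartiles 294 and 564). A wider UTX peak touches a TAL1 peak more easily, so that last difference is not independent of the rule. How far this alone accounts for it was not tested. Of these 469 UTX peaks, 73 (15.6%) held a TAL1 peak, against 12.1% of all 17396 UTX peaks. Counted by site, the nearest UTX peak not touched held a TAL1 peak for 90 of 515 sites without UTX (17.5%). Without the chromosome 2 window this was 72 of 497 (14.5%), and for sites with UTX it was 339 of 2163 (15.7%). The excess over all UTX peaks is therefore not read as a trait of the sites without UTX. Only 42 sites had both a UTX peak and a TAL1 peak with UTX within 10 kb, and 124 (24.1%) had a UTX peak within 10 kb but no TAL1 peak with UTX there. Over the whole TAL1 list, 1094 of 2678 peaks (40.9%) had a UTX peak within 10 kb that they did not touch. Matching counts for sites with UTX are not given, so the 42 and 124 are not read as a trait of these sites.

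The 5 sites farthest from UTX were on chromosomes X, 14 and 1. The farthest, chrX:111255811-111255910 (100 bases wide), lay 1714 kb from the nearest UTX peak, and chrX:111556799-111556886 (88 bases) lay 1413 kb from the same one. On chromosome 14, chr14:86058590-86058695 (106 bases) and chr14:86968110-86968203 (94 bases) lay 1555 and 1501 kb away. The last was chr1:238223538-238223658 (121 bases) at 1211 kb. Each was narrower than the median of the whole TAL1 list, 147.5 bases, as were 80% of all sites without UTX. More than 500 kb from UTX were 16 of the 515 sites, 4 of them on chromosome X.

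Within a cluster, TAL1 peaks were mostly alike in their UTX state. TAL1 peaks that touch the same UTX peak are alike by the rule, and only 19.2% of all TAL1 peaks were without UTX. How far this accounts for the likeness was not tested. Joining TAL1 peaks across gaps of up to 10 kb gave 21 clusters of 3 or more peaks, which held 85 TAL1 peaks, 32 of them without UTX. Every peak had UTX in 16 of the 21 clusters, and no peak had UTX in 3. The other 2 were the chromosome 2 cluster, where 18 of 19 peaks had no UTX, and a chromosome 8 cluster, where 1 of 4 had none. The 4 clusters with at least 2 sites without UTX thus held 31 such sites among 32 TAL1 peaks, and the 17 remaining clusters held 1 among 53. The 2 largest clusters of the whole list were of the first kind, with 19 and 7 TAL1 peaks, whereas no cluster with 0 or 1 site without UTX held more than 4.

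**Figure D3:**
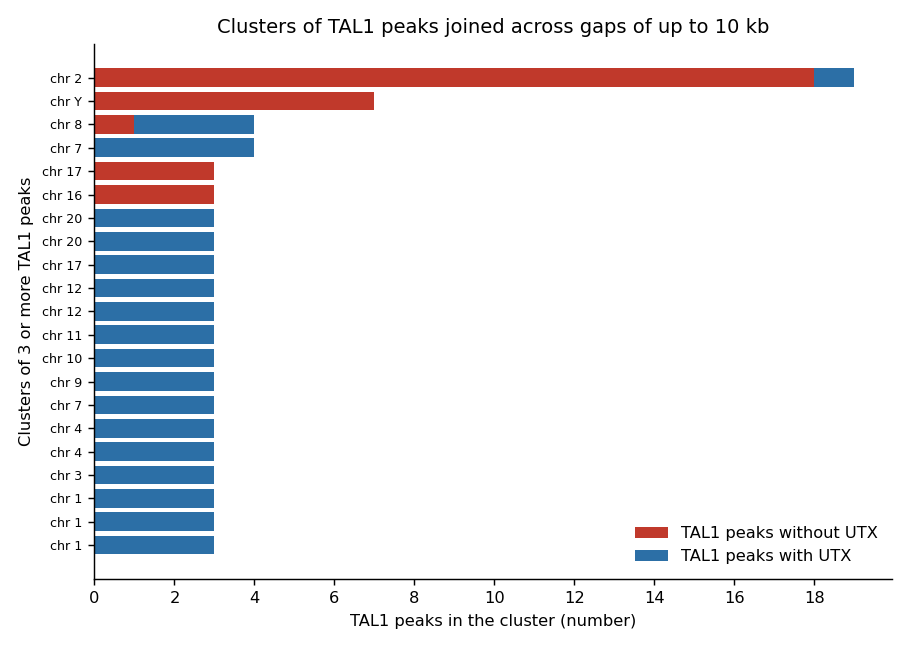
Each bar is 1 of the 21 clusters of 3 or more TAL1 peaks, labelled by chromosome, and its length is the number of TAL1 peaks, divided into those without UTX and those with UTX. Of the bars, 19 have a single colour, and the 2 longest, with 19 peaks on chromosome 2 and 7 on chromosome Y, consist of sites without UTX except for 1 peak.

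In clusters stood 32 of the 515 sites without UTX (6.21%, interval 4.29 to 8.66%) and 53 of the 2163 with UTX (2.45%, interval 1.84 to 3.19%). This higher share rested on 2 places. Without the chromosome 2 window it was 2.82% (14 of 497), and without both that window and chromosome Y it was 1.43% (7 of 489, interval 0.577 to 2.93%). That interval holds the 2.45% of sites with UTX, from which no place was left out. Along the chromosomes, 317 of the 515 sites (61.6%) had a TAL1 peak with UTX, or no TAL1 peak, as the neighbour on each side. Only 19.2% of all TAL1 peaks were without UTX, so neighbours with UTX are common for any TAL1 peak. The 61.6% is therefore not read as a trait of these sites, and the matching count for sites with UTX is not given. The TAL1 peak closest to a site without UTX was itself without UTX in 129 of 515 cases (25.05%, interval 21.4 to 29.0%), in 112 of 497 (22.5%) without the window and in 105 of 489 (21.5%, interval 17.9 to 25.4%) without the window and chromosome Y. For sites with UTX it was without UTX in 388 of 2163 cases (17.9%, interval 16.3 to 19.6%), and over the whole list 19.2% of peaks were.

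The chromosome 2 cluster packed 19 TAL1 peaks into 18.4 kb, chr2:133016718-133035101, or 1.03 peaks per kb, with 17.0% of the bases inside a TAL1 peak. Gaps between neighbours ran from 112 to 3248 bases with a median of 486.5. The 18 sites without UTX measured 87 to 324 bases with a median of 125.5 (interval 108 to 186). The widest were chr2:133030498-133030821 (324 bases) and chr2:133029618-133029911 (294 bases), the 2 widest of all sites without UTX, followed by chr2:133033352-133033566 (215 bases), chr2:133026968-133027165 (198 bases) and chr2:133025758-133025943 (186 bases). The single TAL1 peak with UTX stood near the right end, chr2:133034401-133034812, and at 412 bases was the widest of the cluster. It shared 173 bases with a UTX peak of 217 bases at chr2:133034640-133034856, and the last site without UTX, 87 bases wide, lay 203 bases beyond it. The only other UTX peak of the window, 157 bases at chr2:133046776-133046932, lay to the right of all 19 TAL1 peaks. Distances from the 18 sites to UTX ran from 0.159 to 17.8 kb, so the cluster lay closer to UTX than the median site. The centromere gap of the chromosome was 37.7 Mb away. Whether the segment is rich in repeats was not tested, since a repeat annotation of the build was not used.

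The chromosome Y cluster was the other large group. It held 7 TAL1 peaks within 13.7 kb, chrY:10019894-10033563, or 0.512 peaks per kb, and all 7 were without UTX. Their widths were 100, 177, 141, 117, 116, 88 and 89 bases from left to right, with a median of 116. The gaps between them were 580 to 4933 bases with a median of 1665. The nearest UTX peak, 204 bases at chrY:9989454-9989657, lay 30.2 to 43.8 kb to the left, and 2 more UTX peaks stood to the left of that one. The nearest TAL1 peak with UTX was 1672 kb or more away. The cluster ended 71.0 kb before the centromere gap of the chromosome.

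**Figure D4:**
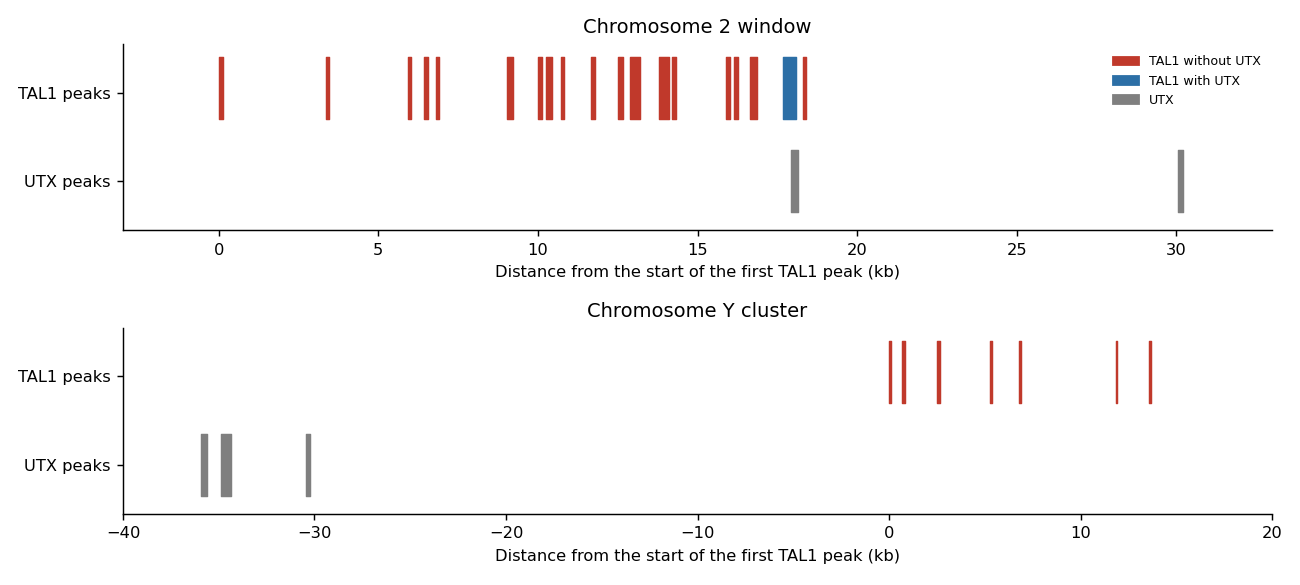
Peaks of the chromosome 2 window (top) and of the chromosome Y cluster (bottom) by distance in kb from the start of the first TAL1 peak, with TAL1 peaks in the upper row (coloured by UTX state) and UTX peaks in the lower row, to scale in each panel except that narrow bars have an outline. The 18 sites without UTX on chromosome 2 lie to the left of and just beyond the 1 TAL1 peak with UTX, and the 7 on chromosome Y have their nearest UTX peak 30.2 kb to the left.

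Smaller groups of sites without UTX also occurred. On chromosome 17, 6 sites without UTX followed each other within 45.4 kb, chr17:45221210-45266619, with no UTX peak between them and widths of 108 to 148 bases. Of these, 3 formed a cluster at chr17:45249271-45266619 that was 14.8 to 32.0 kb from UTX and 787 kb or more from a TAL1 peak with UTX. On chromosome 16, the 3 sites of chr16:54459708-54463545 measured 88, 119 and 87 bases and lay 15.6 to 19.4 kb from a UTX peak of 157 bases. Pairs of sites without UTX stood at chr16:16214264-16214949, chr2:33141255-33141695, chr4:108970664-108975431, chr17:45234304-45235711 and chr20:26189011-26190167. The chromosome 16 pair had a UTX peak of 205 bases 191 bases to its left, whereas the pair on chromosome 2 lay 343 kb from UTX. On chromosome 4 the nearest UTX peak, 353 bases at chr4:108972440-108972792, lay between the 2 sites.

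Some rows of sites without UTX were longer and had UTX peaks between them. On chromosome 8, 6 sites followed each other without a TAL1 peak with UTX over 2.94 Mb, chr8:140352194-143296340, while 18 UTX peaks stood between them. Distances to UTX in this row ran from 0.741 to 107 kb, and widths from 87 to 255 bases. A further row of 4 on the same chromosome, chr8:130566997-133998011, spanned 3.43 Mb with 9 UTX peaks between. On chromosome 2 a row of 4 at chr2:30513694-33415702 had 3 UTX peaks over 2.90 Mb and distances of 154 to 976 kb to UTX. Of the 394 rows, 59 held 2 sites, 12 held 3 and 6 held 4 or more.

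The share of TAL1 peaks without UTX lay between 14 and 25% on 19 of the 24 chromosomes, around the 19.2% of the whole list. The interval lay wholly above 19.2% on 2 chromosomes, Y and 2, and wholly below it on 1, chromosome 18. The intervals count each peak as separate, which peaks of 1 cluster may not be. Among 24 chromosomes, some intervals can also miss 19.2% through counting alone. Their positions are therefore a description and are not read as differences between chromosomes. Chromosome Y had the highest share, 8 of 11 (72.7%, interval 39.0 to 94.0%). Of these 8 sites, 7 were the cluster described above, so the share rests mostly on 1 place. The remaining one was chrY:6789249-6789396, 148 bases wide and 319 kb from UTX. Chromosome 18 had the lowest, 3 of 44 (6.82%, interval 1.43 to 18.7%). Chromosome 2 had 59 of 211 (28.0%, interval 22.0 to 34.5%) with the window and 41 of 192 (21.4%, interval 15.8 to 27.8%) without it, an interval that holds 19.2%. Chromosomes X and 14 followed with 15 of 57 (26.3%, interval 15.5 to 39.7%) and 27 of 103 (26.2%, interval 18.04 to 35.8%), intervals that hold 19.2%.

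**Figure D5:**
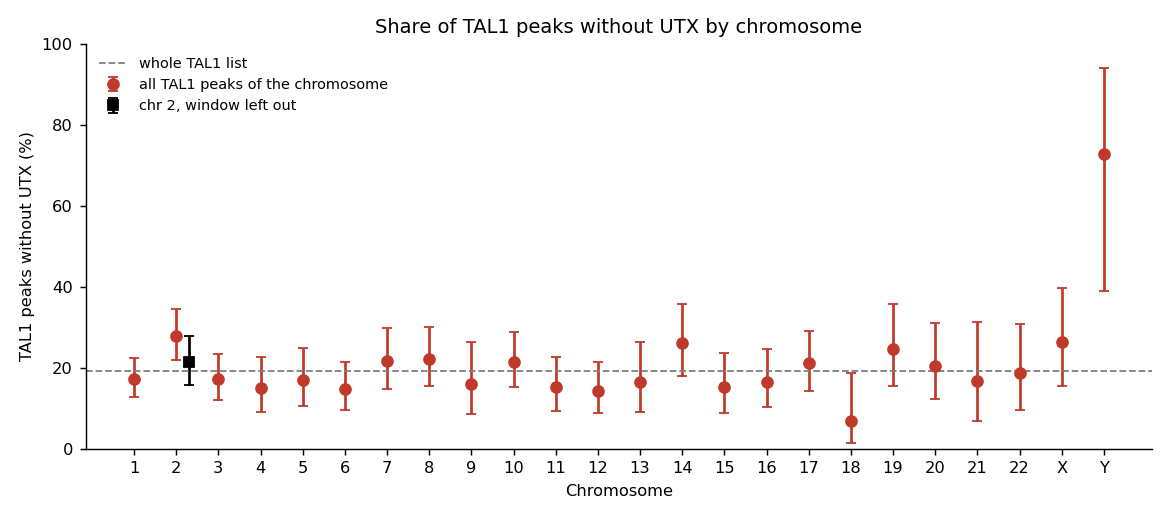
Percentage of TAL1 peaks without UTX on each of the 24 chromosomes with 95% exact binomial intervals, and for chromosome 2 also without the window (square). The dashed line marks the 19.2% of the whole list, chromosome Y stands at 72.7% with a wide interval from 11 peaks, and chromosome 2 goes from 28.0% to 21.4% without the window.

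In windows of 1 Mb, all 2678 TAL1 peaks lay in 1335 windows, so few peaks per window are not particular to these sites. The sites occupied 413 of the windows, of which 346 held 1 site, 54 held 2 and 13 held 3 or more. Matching counts for sites with UTX are not given. In 155 of the 413 windows no TAL1 peak with UTX was present, and in 16 there was no UTX peak either. Besides the windows of the chromosome 2 and Y clusters, the fullest was 45 to 46 Mb on chromosome 17, with 6 sites without UTX among 6 TAL1 peaks and 12 UTX peaks. All 3 TAL1 peaks were without UTX in a window of chromosome X (9 to 10 Mb, 4 UTX peaks), one of chromosome 10 (44 to 45 Mb, 4 UTX peaks) and one of chromosome 2 (33 to 34 Mb, 2 UTX peaks). At 37 to 38 Mb on chromosome 6, by contrast, 3 of 7 TAL1 peaks lacked UTX in a window with 14 UTX peaks.

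Nearness to centromeres was measured against the 24 centromere gaps of hg19, each 3 Mb long, from a table written from knowledge of the build because no annotation file was at hand; 0 of the 20074 peaks fell inside a gap. Within 2 Mb of a gap lay 19 of the 515 sites without UTX (3.69%, interval 2.24 to 5.70%), 44 of the 2163 with UTX (2.03%, interval 1.48 to 2.72%) and 1.71% of UTX peaks. Chromosome Y gave 7 of the 19; without it and the chromosome 2 window, 12 of 489 (2.45%, interval 1.27 to 4.25%) remained, close to the sites with UTX. Closer in, the sets differed more: within 1 Mb lay 14 sites without UTX (2.72%, interval 1.49 to 4.52%) and 16 with UTX (0.740%, interval 0.423 to 1.20%). Without chromosome Y and the window, 7 of 489 sites without UTX remained within 1 Mb (1.43%, interval 0.577 to 2.93%). Within 500 kb the counts were 10 (1.94%) and 4 (0.185%, interval 0.0504 to 0.473%). Of the 10, 3 were not on chromosome Y (3 of 489, 0.613%, interval 0.127 to 1.78%). At both distances the intervals without chromosome Y and the window overlapped those of the sites with UTX, from which no place was left out. Within 5 Mb the shares were 6.41% and 5.92%. Within 100 kb of a gap lay 7 sites without UTX, all of them in the chromosome Y cluster, and 0 of the 2163 with UTX, which allows a share of up to 0.139%.

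The 12 pericentromeric sites outside chromosome Y were on chromosomes 6, 8, 10, 12, 14, 17, 19 and 20. Nearest to a gap was the pair on chromosome 20, chr20:26189011-26189115 (105 bases) and chr20:26189952-26190167 (216 bases), 180 and 179 kb from it and 62.8 and 61.7 kb from UTX. On chromosome 12, chr12:38448860-38448948 (89 bases) and chr12:38536725-38536812 (88 bases) lay 0.592 and 0.680 Mb from the gap, and at 6031 and 6119 kb they were the farthest of all sites from a TAL1 peak with UTX. On chromosome 17, chr17:21960898-21961073 (176 bases) lay 302 kb from the gap and 8.85 kb from a UTX peak of 798 bases. The 19 sites together had a median width of 117 bases, close to the 118 of all sites without UTX, and a median distance to UTX of 37.0 kb.

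A second measure used the peaks alone, the longest stretch of each chromosome without a peak of either list, which held the centromere gap on 13 of the 24 chromosomes. These stretches are drawn from the same peaks, so a peak can itself be the edge of one. Within 100 kb of such a stretch lay 7 sites without UTX (1.36%, interval 0.548 to 2.78%) and 3 with UTX (0.139%, interval 0.0286 to 0.405%). Within 500 kb the counts were 10 (1.94%, interval 0.935 to 3.54%) and 14 (0.647%, interval 0.354 to 1.08%), and within 1 Mb they were 15 (2.91%) and 36 (1.66%). No site of the chromosome 2 window or of chromosome Y lay within 1 Mb of such a stretch. Leaving both out therefore could not change the counts of sites without UTX, which were 7, 10 and 15 of 489. Farther out the shares came together. Within 2 Mb lay 18 sites without UTX (3.50%, interval 2.08 to 5.47%) and 66 with UTX (3.05%, interval 2.37 to 3.87%). Towards the chromosome ends the intervals of the sets overlapped: within 2 Mb of the outermost peak of either list on a chromosome stood 27 sites without UTX (5.24%, interval 3.48 to 7.54%) and 110 with UTX (5.09%, interval 4.20 to 6.10%).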

How the data were processed

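The 2 deposited lists have 3 columns, the chromosome, start and end of each peak, with no score, summit or count, so the depth behind a peak is unknown. For the UTX library, BWA 0.6.2, SAMtools 0.1.18, MACS2 2.0.10 and hg19 are named in the submitters' processing notes, without order or threshold. How the TAL1 list was called is not stated there, and its build was taken to be the same. Both lists were used whole. A TAL1 peak counted as without UTX if it shared no base with any UTX peak, and bedtools 2.31.1 gave the same count. Distances are between nearest edges, with 1 for adjacent peaks. Clusters are 3 or more TAL1 peaks joined across gaps of up to 10 kb. Python 3.11.15, numpy 2.4.6, scipy 1.17.1, pandas 2.3.3 and matplotlib 3.10.9 were used, and the steps were tested on simulated lists. No test was made, because peaks of single lists are not replicates. The 1 mock library has no list here. Centromere gaps were typed in from knowledge of hg19, not read from a file. Named sites are the 5 widest inside and outside the window, the 5 on each side of the overlap rule, the 5 farthest from UTX, clusters with 2 or more sites, chromosome Y and the chromosomes with the highest and lowest share; the pairs, rows, 1 Mb windows and pericentromeric sites were chosen after their values were seen. The sites and measures were chosen with earlier results of these data known. Planned steps on genes, motifs, repeats and assembly gaps were left out for want of an hg19 genome and annotation.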

Additional observations from a re-analysis of the deposited data

How the results depend on the processing

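Of 42 values computed under other settings, 36 stayed within 1.5 times the count or within the interval of the value they stand beside. The number of TAL1 peaks without UTX rose to 1170 when the UTX list was cut to its wider 50%, which leaves fewer intervals to touch, and fell to 103 of 1339 (7.69%) when the TAL1 list was cut in the same way. It ranged from 485 to 527 under the other overlap rules, and the 1 base rule gave 515. The share of sites without UTX in TAL1 clusters went from 6.21% to 2.82% without the chromosome 2 window and to 1.43% without that window and chromosome Y, by the sites left out. Reaching out to 5 Mb raised the share near the longest peak-free stretch from 3.50% to 7.77% and the share near a centromere gap from 3.69% to 6.41%, since more bases are covered. Settings that use centromere gaps, or leave out the chromosome 2 window and chromosome Y together, were chosen after seeing the data, as was every setting for the nearest TAL1 peak. No paired analysis was possible because each list is a single call set. Assembly gaps and repeats from a genome sequence were not used. With no scores or read counts, the lists give no threshold on enrichment, and how the depth of the UTX library bears on a lack of UTX cannot be read from them.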
